A study of Mus musculus with 8 samples.

Results

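Cholesterol biosynthesis was followed through 7 enzyme genes, Hmgcs1, Fdps, Fdft1, Sqle, Lss, Cyp51 and Dhcr7, chosen by name and found by symbol among the 23284 genes counted in each library. They were measured by polyA RNA-seq in dorsal cortex of C57BL/6 mouse embryos at E15.5, counted from the vaginal plug, in 4 libraries labelled WT and 4 labelled ErbB4 -/- (ErbB4 KO), and the comparison asks whether their mRNAs differ between the genotypes. ErbB4 is a receptor tyrosine kinase bound by neuregulins. Embryos without it die of heart defects, so ErbB4-/- mice carry a transgene that expresses ErbB4 in the heart from the alpha-MHC promoter. Both lines were kept as homozygotes, so WT and ErbB4-/- embryos came from separate matings, and litter and sex are not given in the sources used here. No source says whether each library is 1 embryo or a pool, so p-values measure the spread between these libraries only.

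The brain makes its own cholesterol, because lipoproteins in blood deliver little of it across the blood-brain barrier. Acetyl-CoA is built up to HMG-CoA by Hmgcs1 and turned by way of mevalonate into farnesyl pyrophosphate, the product of Fdps, and Fdft1 joins farnesyl units into squalene. Sqle oxidizes squalene, Lss closes it into lanosterol, Cyp51 removes a methyl group from lanosterol, and Dhcr7 makes cholesterol from its immediate precursor. When sterol in the endoplasmic reticulum is low, SREBP transcription factors are released from their anchor and raise transcription of these enzymes together, acting at sterol regulatory elements with NF-Y and Sp1.

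Upstream sequence was at hand in RefSeq (build GRCm38.p6) for 4 of the 7 genes, Hmgcs1, Lss, Cyp51 and Dhcr7. The 250 bases before the start are shown for the 3 with a single listed start, to show where the co-regulatory letters lie in an early enzyme and in 2 later ones. Hmgcs1 lies on the plus strand at chr13:119690101-119690350, Lss on the plus strand at chr10:76531355-76531604 and Cyp51 on the minus strand at chr5:4104698-4104947. Capitals mark TCACNCCAC, one form of the sterol regulatory element, and CCAAT, the NF-Y box, each on either strand (ATTGG is CCAAT on the other strand).
Hmgcs1: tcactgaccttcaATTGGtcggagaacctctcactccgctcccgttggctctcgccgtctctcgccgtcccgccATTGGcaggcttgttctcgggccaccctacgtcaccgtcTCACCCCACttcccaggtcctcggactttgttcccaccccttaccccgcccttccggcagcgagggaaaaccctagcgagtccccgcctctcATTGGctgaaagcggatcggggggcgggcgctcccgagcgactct
Lss: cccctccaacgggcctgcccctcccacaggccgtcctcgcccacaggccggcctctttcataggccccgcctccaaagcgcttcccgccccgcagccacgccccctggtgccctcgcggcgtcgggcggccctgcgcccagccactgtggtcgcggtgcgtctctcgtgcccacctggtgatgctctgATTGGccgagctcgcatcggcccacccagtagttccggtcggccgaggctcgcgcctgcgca
Cyp51: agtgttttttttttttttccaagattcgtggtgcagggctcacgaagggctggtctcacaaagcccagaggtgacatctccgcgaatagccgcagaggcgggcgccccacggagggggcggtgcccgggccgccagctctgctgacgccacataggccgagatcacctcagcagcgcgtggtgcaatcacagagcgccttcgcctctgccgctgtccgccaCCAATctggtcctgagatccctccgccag
Among the 4 genes, Hmgcs1 held the only sterol element of these letters, TCACCCCAC, beginning 137 bases before its start, with 3 CCAAT boxes on the reverse strand. Lss had 1 CCAAT box on the reverse strand and Cyp51 had 1 on the forward strand. In windows that also take in the 50 bases after the start, TCACNCCAC was found in 1.24% of 32851 RefSeq promoters, CCAAT in 37.4% and GGGCGG, the GC box bound by Sp1, in 35.7%. A gene was counted as holding a motif if any of its listed starts did. By that count CCAAT and GGGCGG were each present in 4 of the 4 member genes with a promoter. Each was also in 12 of 14 other enzymes of the route, and TCACNCCAC was in 0 of those 14. The shares over all promoters take each start singly, so the gene counts cannot be set directly against them. Among the listed starts of Dhcr7, for example, some held 0 CCAAT boxes and another held 2. A match of letters is a description of the window and not a binding site.

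The libraries held 28205703 to 38346416 counted reads in WT and 31574536 to 48871480 in the libraries labelled ErbB4-/-, a difference that an exact two-sided permutation test did not call (p = 0.257, smallest possible 0.0286). Erbb4 itself was not lower in the libraries labelled ErbB4-/-, at 20.7 to 24.6 CPM (reads scaled to library size) against 9.0 to 25.3 in WT (log2 fold change 0.28 ± 0.23 SE, edgeR adjusted p = 0.812). A sum of reads over the whole gene does not show whether a transcript carries the targeted change. Xist, transcribed from the inactive X, was at 983 to 1687 CPM in WT replicates 1 to 3 but at 3.48 in WT replicate 4 and 2.70 to 3.82 in the libraries labelled ErbB4-/-, while Y-linked Ddx3y was at 76.4 CPM in WT replicate 4, 78.7 to 80.9 in the libraries labelled ErbB4-/- and under 0.5 in the remainder. Genotype and sex of the tissue therefore cannot be told apart except through 1 WT library. WT replicate 1 stood apart, at 38.9 on the first principal component (30.6% of the variance) against -15.5 to 6.07 for the other 7 libraries, and its deviations fell with transcript length (Spearman rho -0.60 across 14392 genes, 0.04 to 0.23 in the others). As a check of the tissue, 7 markers of cortical projection neurons summed to 2752 to 3136 CPM in WT and 2675 to 3050.2 in the libraries labelled ErbB4-/-. Markers of the meninges, 6 genes, summed to 9.49 to 10.95 CPM in WT and 9.59 to 21.8 in the libraries labelled ErbB4-/-, with Ogn at a log2 fold change of 1.85 (edgeR unadjusted p = 0.0125, adjusted p = 0.810). The summed CPM of 6 red blood cell markers was 31.8 to 56.6 in WT and 20.8 to 35.2 in the libraries labelled ErbB4-/-, and 7 of 7 cortical progenitor markers had log2 fold changes below 0 (median -0.13). The log2 fold changes of 6 of 6 oligodendrocyte lineage markers (median 0.15) and of 3 of 4 tested astrocyte markers (median 0.28, Gfap at 1.04) were above 0, and no marker of these lists passed the adjusted threshold. The part of the marker differences in the results below was not tested. Fits without WT replicate 1, with the length trend removed and with Xist as a covariate are given where they turn a printed sign. They are also given for some other genes and lists. With Xist as a covariate the genotype difference rests chiefly on WT replicate 4, the 1 WT library with low Xist. Fewer cells of a type and less RNA per cell cannot be told apart in bulk tissue.

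Of the 7 genes, 6 passed the filter on low counts and were tested, and none was called different between genotypes. At an adjusted p under 0.05 in edgeR's quasi-likelihood test, 0 of 6 were called, beside 0.0272% of the 14696 genes tested. At an unadjusted p under 0.05 the count was also 0 of 6, beside 5.53% of all genes, and DESeq2 and limma-voom called 0 of 6 as well. The log2 fold changes (libraries labelled ErbB4-/- against WT) lay between -0.03 for Fdps and 0.08 for Dhcr7, and 5 of 6 were above 0, beside 49.2% of all genes. Their median was 0.03, beside -0.0022 over all genes. Across the 6 intervals, the widest limits were a decrease of 15.2% for Fdps (a change of -15.2%) and an increase of 17.9% for Lss, so larger changes lay outside the 95% intervals of the fit.

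**Figure D1:**
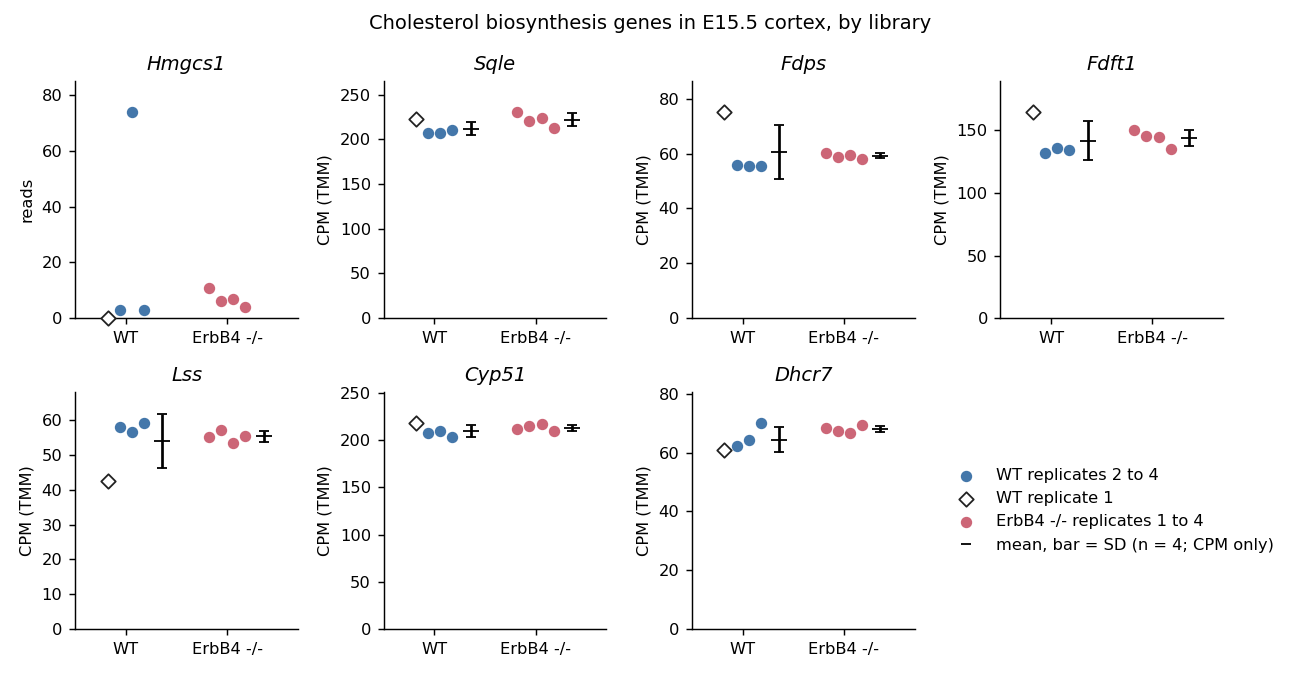
Level of each of the 7 genes in each library, as CPM on TMM-scaled library sizes (reads for Hmgcs1), for WT and ErbB4-/- labels, with the mean and SD of 4 libraries beside the points. The groups overlap in each tested gene, and WT replicate 1 (open diamond) lies outside the other WT libraries in all 6 of them, for example at 75.2 CPM for Fdps against 55.4 to 55.8.

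Hmgcs1, the enzyme that makes HMG-CoA, was almost uncounted. It had 0, 3, 74 and 3 reads in WT replicates 1 to 4, and 11, 6, 7 and 4 reads in the libraries labelled ErbB4-/-. WT replicate 3 therefore held more reads than the other 7 libraries combined, 1.93 CPM against 0 to 0.223, and the gene was left out of the test by the filter on low counts. In the mouse build used for mapping (mm9, NCBI build 37), the RefSeq promoter sequence of Hmgcs1 matched exactly only on 2 unplaced contigs, of 163442 and 186869 bases, and on no assembled chromosome. All of the 17861 windows of 50 bases, the read length, in the 17910-base span of the gene occurred again on the other contig. How reads that match more than 1 place were counted is not given in the sources used here, and the link of the low counts to the second copy was not tested. No level of Hmgcs1 mRNA can be read from these values.

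Fdps, at chr3:88897514-88905881 (mm9, minus strand), supplies farnesyl pyrophosphate to sterols and to protein prenylation. It was at 75.2, 55.8, 55.4 and 55.6 CPM in WT replicates 1 to 4, and at 60.3, 58.8, 59.6 and 58.1 CPM in the libraries labelled ErbB4-/-. WT replicate 1 was the highest of the 8 libraries, and the other 3 WT libraries all lay below the 4 labelled ErbB4-/-. The means were 60.5 ± 9.78 (SD, n = 4) in WT and 59.2 ± 0.958 (n = 4) in the libraries labelled ErbB4-/-, and the log2 fold change was -0.03 ± 0.09 SE (edgeR adjusted p = 0.952). Without WT replicate 1 the sign turned, to 0.09 ± 0.04 SE (edgeR unadjusted p = 0.0586, adjusted p = 0.811). Of the 50-base windows of the Fdps transcript, 63.2% also occur elsewhere in the mm9 genome. How reads from such windows were counted is not known, so the level of Fdps is uncertain.

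Fdft1, squalene synthase, at chr14:63763990-63796630 (minus strand), commits farnesyl units to sterols. It was at 165, 132, 136 and 134 CPM in WT, and at 150.4, 146, 144 and 135 CPM in the libraries labelled ErbB4-/-. Again WT replicate 1 was the highest. Of the libraries labelled ErbB4-/-, replicates 1 to 3 lay between it and the other WT values, and replicate 4, at 134.9, lay below WT replicate 3, at 135.8. The log2 fold change was 0.02 ± 0.07 SE (edgeR adjusted p = 0.951) and became 0.10 ± 0.04 SE without WT replicate 1 (edgeR unadjusted p = 0.0368, adjusted p = 0.811). Without WT replicate 2 or WT replicate 4 it lay just below 0. For this gene 22.2% of transcript windows recur elsewhere on chromosome 14.

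Sqle, squalene epoxidase, a rate-limiting step of the sterol branch, lies at chr15:59146632-59162747 (plus strand), and 0 of its transcript windows recur elsewhere. It was at 223, 207, 207 and 211 CPM in WT, and at 231, 220.4, 224 and 213 CPM in the libraries labelled ErbB4-/-. WT replicates 2 to 4 lay below all 4 libraries labelled ErbB4-/-, and WT replicate 1 lay among them. The means were 212.0 ± 7.65 and 222 ± 7.31 CPM (SD, n = 4 each), with a log2 fold change of 0.07 ± 0.05 SE and an interval of -2.86% to 12.8% (edgeR adjusted p = 0.810). Sqle kept a value above 0 when each library was left out in turn, between 0.05 and 0.09. Without WT replicate 1 it was 0.09 ± 0.04 SE (edgeR unadjusted p = 0.0355, adjusted p = 0.811).

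Lss, which cyclizes oxidized squalene into lanosterol, lies at chr10:75994333-76019883 (plus strand) and moved against Fdps and Fdft1 in WT replicate 1. It was at 42.6, 58.2, 56.6 and 59.3 CPM in WT, and at 55.3, 57.3, 53.5 and 55.5 CPM in the libraries labelled ErbB4-/-. WT replicate 1 was the lowest library and WT replicate 4 the highest. The log2 fold change was 0.03 ± 0.09 SE (edgeR adjusted p = 0.950), and -0.07 ± 0.05 SE without WT replicate 1 (edgeR unadjusted p = 0.178). Leaving out that 1 library thus turned its sign, as did Xist as a covariate (-0.08).

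Cyp51, the lanosterol demethylase, at chr5:4081145-4104746 (minus strand), had the smallest coefficient of variation (SD over mean) of the 6 in each group of 4 libraries. It was at 219, 207, 210.1 and 203 CPM in WT, and at 212, 215, 217 and 209 CPM in the libraries labelled ErbB4-/-. The groups overlapped throughout. The log2 fold change was 0.02 ± 0.05 SE with an interval of -5.12% to 9.09% (edgeR adjusted p = 0.907). It was 0.05 without WT replicate 1 and 0.0095 without WT replicate 4.

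Dhcr7, which performs the last reduction to cholesterol, at chr7:151009050-151034315 (plus strand), had the highest fold change of the 6 with all 8 libraries, but not without WT replicate 1. It was at 60.8, 62.3, 64.4 and 70.2 CPM in WT, and at 68.3, 67.5, 66.8 and 69.3 CPM in the libraries labelled ErbB4-/-. Here WT replicate 4, the WT library with Ddx3y, was the highest of all, and the remaining 3 WT libraries lay below the 4 labelled ErbB4-/-. The means were 64.4 ± 4.12 and 68.0 ± 1.09 CPM (SD, n = 4 each), and the log2 fold change was 0.08 ± 0.06 SE (edgeR adjusted p = 0.811). It was 0.05 without WT replicate 1, below Sqle, Fdps and Fdft1, and 0.12 without WT replicate 4. With Xist as a covariate it turned to -0.04.

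Exact two-sided permutation tests of the mean log2 CPM over the 70 assignments of 8 libraries gave p = 0.114 for Sqle, 0.171 for Dhcr7, 0.343 for Cyp51, 0.8 for Fdft1, 0.971 for Lss and 1 for Fdps. In 0 of 6 genes did the groups separate completely, beside 3.34% of all genes. In 2 of 6, Sqle and Fdps, the 4 libraries labelled ErbB4-/- lay above WT replicates 2 to 4, which 3.16% of all genes did. Without WT replicate 1, 2 of 6 (Sqle and Fdft1) had an unadjusted edgeR p under 0.05, beside 5.93% of all genes, and 0 of 6 were called after adjustment, beside 0.0404%. Dropping that library also moved the median of the members from 0.03 to 0.07. The WT library with Ddx3y, replicate 4, lay outside the range of the libraries labelled ErbB4-/- for 6 of 6 genes, below it for Sqle, Fdps, Fdft1 and Cyp51 and above it for Lss and Dhcr7, beside 42.3% of all genes on either side of the range. A comparison within that sex pattern would rest on this 1 WT library, so it has no replicate error.

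**Figure D2:**
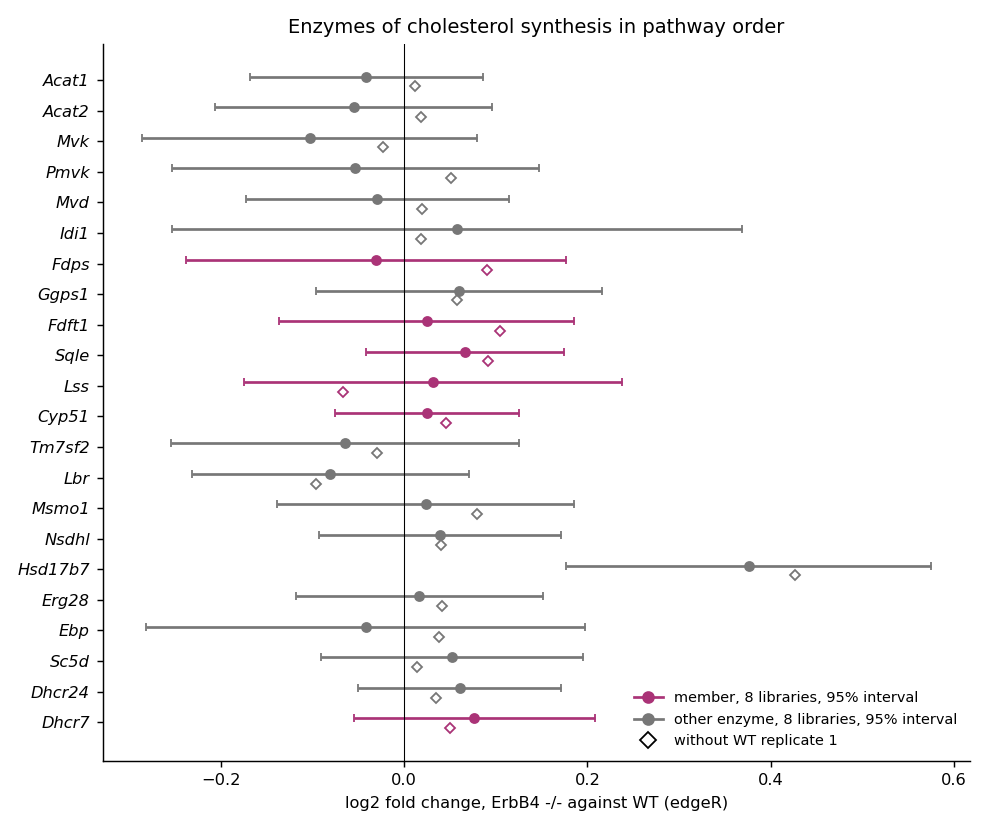
The log2 fold change of 22 enzymes of cholesterol synthesis between libraries labelled ErbB4-/- and WT, in pathway order, with 95% intervals from edgeR (filled points, 8 libraries) and the value without WT replicate 1 (open diamonds). The 6 member genes lie within -0.03 and 0.08, and Hsd17b7, at 0.38, is the one enzyme whose unadjusted interval does not reach 0.

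The spread between replicates differed between members and between groups. Among the libraries labelled ErbB4-/- the coefficient of variation was 1.50% for Cyp51, 1.61% for Dhcr7, 1.62% for Fdps, 2.80% for Lss, 3.29% for Sqle and 4.53% for Fdft1. Read counting alone gives 1.10% for Cyp51, 1.95% for Dhcr7, 2.09% for Fdps, 2.16% for Lss, 1.08% for Sqle and 1.34% for Fdft1. These counting values hold no variation between samples and are given for scale only. In WT the coefficient was 16.2% for Fdps, 14.4% for Lss and 10.9% for Fdft1. Over WT replicates 2 to 4 alone it dropped to 0.346% for Fdps, 2.41% for Lss and 1.61% for Fdft1. For Dhcr7 it stayed at 6.22%, against 6.39% with all 4, because WT replicate 4 was high.

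The deviation of WT replicate 1 differed in direction between members and partly followed transcript length. Fdps has the shortest transcript, 1233 nt, and was 0.34 above the mean log2 CPM of the 8 libraries, where the trend over all genes at that length was 0.26. Lss has the longest, 4667 nt, and was 0.36 below the mean (-0.36), where the trend was -0.11. Fdft1, of 2860 nt, was 0.21 above against a trend of 0.05, and Dhcr7, of nearly the same length at 2815 nt, deviated by -0.12 against a trend of 0.05. Alike in length, Fdft1 and Dhcr7 thus deviated in opposite directions. When each library's length trend was removed, 6 of 6 fold changes were above 0, with a median of 0.04, and Fdps turned from -0.03 to 0.05. Sqle was the 1 member with an unadjusted p under 0.05 in that fit (0.08 ± 0.04 SE, edgeR unadjusted p = 0.0482, adjusted p = 0.694), beside 7.14% of all genes.

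**Figure D3:**
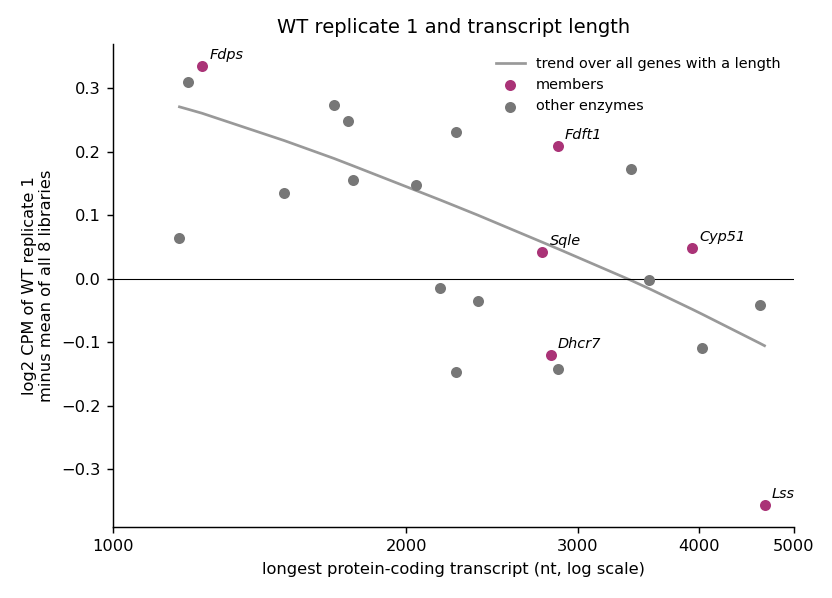
Deviation of WT replicate 1 from the mean log2 CPM of the 8 libraries against the length of the longest protein-coding transcript (log axis), for the 6 tested members, the 16 other enzymes and the trend over 14392 genes (line). Fdps (1233 nt) is high and Lss (4667 nt) low, while Fdft1 and Dhcr7, alike in length, deviate in opposite directions.

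Per kilobase of transcript, the only scale on which genes are set against each other here, Sqle had the highest counted level of the 6. It was at 76.9 ± 2.77 CPM per kb in WT and 80.5 ± 2.65 in the libraries labelled ErbB4-/- (SD, n = 4 each). Recurring windows made up 63.2% of the Fdps transcript and 22.2% of the Fdft1 transcript, against 0 for Sqle. How reads matching more than 1 place were counted is not known, so the places of Fdps and Fdft1 in the order are uncertain. As counted, Cyp51 came next at 53.4 ± 1.68 in WT, then Fdft1 at 49.5 ± 5.40 and Fdps at 49.1 ± 7.93. Within a library, Cyp51 lay above Fdft1 and Fdft1 above Fdps in 7 of 8 libraries. In WT replicate 1 the order was turned, with Fdps at 61.0, Fdft1 at 57.5 and Cyp51 at 55.6. Fdft1 and Fdps did not differ beyond their spread over libraries. Dhcr7 was at 22.9 ± 1.46 and Lss at 11.6 ± 1.67 CPM per kb in WT, each apart from its neighbours in every library. The order was the same in the libraries labelled ErbB4-/-, at 54.3 for Cyp51, 50.3 for Fdft1, 48.0 for Fdps, 24.1 for Dhcr7 and 11.9 for Lss. As counted, Sqle was also the highest of the 22 enzymes of the route compared here, with a mean of 78.7 over the 8 libraries. For Acat2, at a mean of 53.9, 37.3% of transcript windows recur elsewhere, so its place below Sqle is uncertain, as is that of Fdps. The lowest was Idi1, the isomerase of isopentenyl units, at 1.82, a gene for which 84.6% of transcript windows recur elsewhere in the genome.

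**Figure D4:**
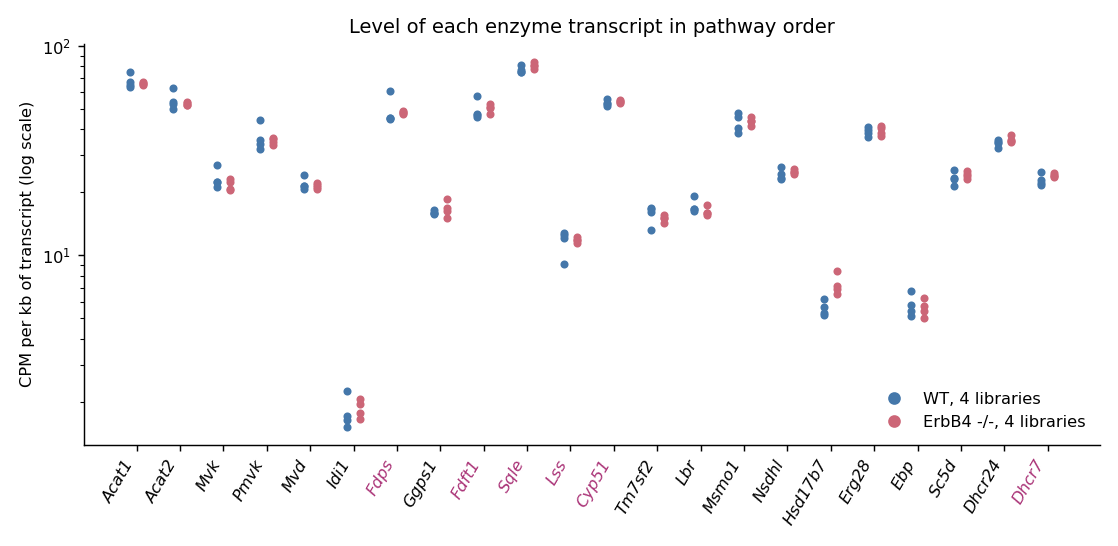
Level of each enzyme transcript in CPM per kb (log axis) in the 4 libraries labelled WT and 4 labelled ErbB4-/-, in pathway order, with members in coloured type. As counted, Sqle is highest and Lss lowest among the members, at means of 78.7 and 11.7, and the libraries of both genotypes overlie each other at each member.

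The members were also compared by how they order the 8 libraries. The mean of their log2 deviations was lowest in WT replicate 2 (-0.05) and WT replicate 3 (-0.04), followed by WT replicate 4 and the library labelled ErbB4-/- replicate 4 (both -0.01), and was highest in the library labelled ErbB4-/- replicate 1 (0.04). WT replicate 1 lay at 0.03, between 2 libraries labelled ErbB4-/-. With the length trend removed WT replicate 1 moved to -0.02. Sqle and Fdft1 ordered 24 of the 28 pairs of libraries as this mean did, Fdps 23, Cyp51 20, Dhcr7 16 and Lss 8, where the median gene ordered 14. The members themselves contribute to that mean. The genes outside the lists with the most similar order were Parp6, Slc29a1, Cyp26b1 and Unc45b, with 27 of 28 pairs each, and Nkain1, with 26, over the 8 libraries.

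The other 16 enzymes of the route compared here were all tested, and 0 were called after adjustment in edgeR, with 1 at an unadjusted p under 0.05. Their median log2 fold change was -0.0064, with 8 of 16 above 0. Without WT replicate 1 it was 0.03 with 13 of 16 above 0, and with the length trend removed 0.04 with 11 of 16. With Xist as a covariate it was 0.03, with 9 of 16 above 0. With the members added, 13 of 22 enzymes were above 0, and 18 of 22 without WT replicate 1. Hsd17b7, a sterol keto-reductase acting between Cyp51 and Dhcr7, had the highest value of the list. It was at 28.4, 26.2, 24.5 and 24.0 CPM in WT, and at 38.9, 31.8, 32.8 and 30.1 CPM in the libraries labelled ErbB4-/-, so the groups did not overlap. Its log2 fold change of 0.38 ± 0.09 SE had an unadjusted edgeR p of 0.00151 and an adjusted p of 0.710, and DESeq2 gave an adjusted p of 0.0609. Mvk, mevalonate kinase, was the lowest at -0.10, and at -0.02 without WT replicate 1.

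Among the regulators of the pathway none was called either. Of 11 genes of the SREBP machinery, 0 were called and 4 were above 0, with a median of -0.01 (0.01, with the sign turned, without the library labelled ErbB4-/- replicate 2) and a range from -0.14 for Ubxn1 (-0.02 without WT replicate 1) to 0.10 for Mbtps2, the protease that makes the final SREBP cut. Srebf2, the SREBP that chiefly drives sterol enzymes, was at 306 to 371 CPM in WT and 356 to 367 in the libraries labelled ErbB4-/- (log2 fold change 0.06, edgeR adjusted p = 0.850), and its fold change was -0.0020 without WT replicate 1 and -0.03 with Xist as a covariate. Srebf1, which chiefly drives fatty acid genes, was at 80.5 to 87.0 CPM in WT and 72.8 to 80.5 in the libraries labelled ErbB4-/- (-0.14 ± 0.06 SE, edgeR unadjusted p = 0.0279, adjusted p = 0.810). Insig1, which holds the SREBPs in the endoplasmic reticulum when sterol is plentiful, was at -0.03.

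Of 24 genes of uptake, transport, storage and efflux, 19 were tested, 0 were called and 12 were above 0, with a median of 0.08, or 0.03 without WT replicate 1. Vldlr, a lipoprotein and reelin receptor, had a log2 fold change of 0.22 (edgeR unadjusted p = 0.00398), and its libraries labelled ErbB4-/- at 99.8 to 109 CPM all lay above WT at 81.0 to 94.3. Npc1, which exports cholesterol from lysosomes, was at 0.29 (unadjusted p = 0.00864), and Abca1, a cholesterol efflux pump, at 0.26 (unadjusted p = 0.0352). Each of the 3 had an edgeR adjusted p of 0.810. With the length trend removed Vldlr was at 0.14 (edgeR unadjusted p = 0.0234), Npc1 at 0.25 and Abca1 at 0.17 (edgeR unadjusted p = 0.0708). Abca1 was at 0.18 without WT replicate 1 (edgeR unadjusted p = 0.0794) and at 0.48 with Xist as a covariate. Nr1h3, a sterol-sensing receptor, was the lowest at -0.30. Of 13 fatty acid synthesis genes, 0 were called and 11 were above 0, with a median of 0.06 (0.02 without WT replicate 1) and a range from -0.06 for Acly to 0.20 for Scd1. Leaving out each library in turn gave -0.10 to -0.03 for Acly and 0.14 to 0.25 for Scd1. With Xist as a covariate Scd1 was at 0.42. Of 10 genes in other branches from mevalonate, 0 were called and 6 were above 0, with a median of 0.02 (-0.02 without the library labelled ErbB4-/- replicate 2) and a range from -0.11 for Fnta (-0.05 without WT replicate 1) to 0.10 for Dolk. Dolk was at 0.17 without the library labelled ErbB4-/- replicate 2 and at 0.06 without that labelled replicate 3. The members, with a median of 0.03, lay within the range of these list medians with all 8 libraries. Without WT replicate 1 their median was 0.07, above each related list (-0.01 to 0.03). With the length trend removed it was 0.045, level with the other mevalonate branches at 0.045.

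**Figure D5:**
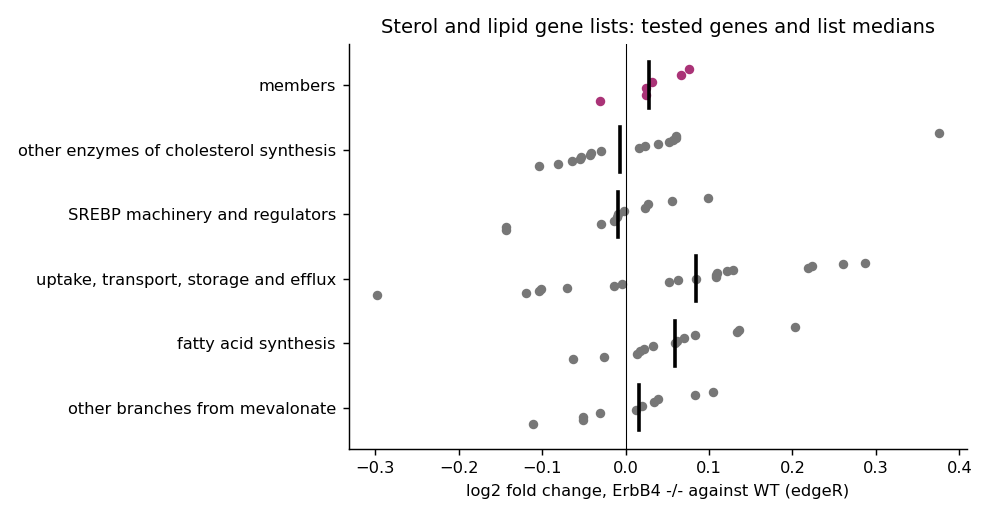
Log2 fold change of each tested gene in the member list and 5 related lists (points), with the median of each list (bar). List medians run from -0.01 for the SREBP machinery to 0.08 for uptake and transport, and the members lie between -0.03 and 0.08.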

How the data were processed

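E15.5 dorsal cortex, freed of meninges and ganglionic eminences, was sequenced from 4 samples labelled WT and 4 labelled ErbB4-/- as polyA libraries without strand information (single-end reads of 50 bases). The authors mapped reads to mm9 with HISAT and deposited raw counts per gene from HTSeq-count, with no normalization. The annotation and the treatment of multi-mapped reads are not given in the sources used here. A deposited table of the authors' own DESeq2 comparison was not used.

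The members and the gene lists were chosen with earlier results of these data known. Counts were fitted over all genes with edgeR 4.0.16 in R 4.3.3 (TMM, filterByExpr with a minimum count of 10, quasi-likelihood test, genotype only), and p-values were adjusted over 14696 genes by Benjamini-Hochberg at 0.05. CPM uses TMM-scaled library sizes, and log2 CPM a prior count of 2. The coefficient of variation is SD over mean, and its counting part assumes Poisson reads. Transcript lengths and positions came from GENCODE vM1 on NCBI build 37, the same assembly as mm9. Fits were tested on simulated data. Genes named were the members, Srebf1, Srebf2 and Insig1, list genes with an unadjusted p under 0.05, the highest and lowest of each list, and the 5 genes most like the members. Idi1 and Acat2 lay outside these rules and were named after their values were seen. A pair of genes of the lists is not reported here and was left out of the list counts and medians. Alternatives were DESeq2 1.42.0, limma-voom 3.58.1, RLE and upper-quartile scaling, other filters, a replicate block, Xist or 1 surrogate variable (sva 3.50.0) as covariate, removal of a loess length trend, and leaving out each library. Replicates of a group differed beyond counting noise, so none was the same library sequenced again. That does not show whether libraries shared RNA or a pool. Depth was 28205703 to 48871480 reads per library.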

Additional observations from a re-analysis of the deposited data

Results flagged for a closer look

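The 7 members and Hsd17b7 were examined in both groups, and in 4 of these 16 sets of 4 libraries there was 1 library far from the other 3 by Dixon's test, where chance alone marks about 1 in 20 groups. Hmgcs1 was at 1.93 CPM in WT replicate 3, above the other WT libraries. Fdps was at 75.2 CPM in WT replicate 1, above the other WT libraries. Fdft1 was at 165 CPM in WT replicate 1, likewise the highest. Lss was at 42.6 CPM in WT replicate 1, the lowest of its group. The flags for Fdps, Fdft1 and Lss thus fall on the same library, and Hmgcs1 had too few reads for a test. The 16 sets are therefore not independent, and their count cannot be read as an excess over 1 in 20. The causes were not tested.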

How the results depend on the processing

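Members called stayed at 0 of 6 under every alternative run, including an adjusted p under 0.1. Over all genes 4 were called, against 24 with DESeq2, 2 with the length trend removed, and 1 each with RLE scaling, upper-quartile scaling, the replicate block, Xist as a covariate and 1 surrogate variable. Leaving out 1 library gave 1 to 13 called genes, the highest without WT replicate 4 and 1 without WT replicate 3 or the libraries labelled ErbB4-/- replicates 1, 2 or 3. Some fold changes turned sign, none past the threshold. With Xist as a covariate Dhcr7 was at -0.043, Fdps 0.061, Lss -0.075 and Srebf2 -0.025, and the medians were 0.017 for uptake and transport and 0.037 for the other mevalonate branches. With 1 surrogate variable Fdps was at 0.060 and Lss at -0.042, and the median for uptake and transport at 0.033. With the length trend removed Fdps was at 0.052 and the median of the other mevalonate branches at 0.045. Leaving out each library in turn gave -0.0093 to 0.10 for Fdft1, -0.071 to 0.090 for Fdps, -0.067 to 0.078 for Lss and -0.0020 to 0.087 for Srebf2. The medians then ran from 0.020 to 0.070 for the members, -0.030 to 0.027 for the other enzymes, -0.020 to 0.012 for the SREBP machinery, 0.026 to 0.11 for uptake and transport, 0.016 to 0.061 for fatty acid synthesis and -0.019 to 0.014 for the other mevalonate branches. The causes were not tested, and other results of members kept their direction. Same-numbered libraries correlated weakly (0.02 to 0.13), with 2 of 4 WT libraries closest to their own number. These values do not settle whether replicate numbers mark samples handled together. With the replicate block 1025 genes had an unadjusted edgeR p under 0.05, against 812 in the main fit, and 0 members were called. Each tested member had over 1000 reads per library, and Hmgcs1 had too few for a test.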
